A study of Mus musculus with 56 samples.

Results

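The glutathione S-transferases (Gst), the UDP-glucuronosyltransferases (Ugt) and the sulfotransferases (Sult) were followed in mouse livers that lost the microRNA miR-122. All rows of the RNA-seq table whose symbol begins with Gsta, Gstm, Gstp, Gstt, Gstk, Gsto, Gstz, Ugt1, Ugt2, Ugt3 or Sult were taken, which gave 60 of 22308 rows and 59 of 21888 symbols. Of these, 21 were Gst, 20 Ugt and 18 Sult genes. A mean of at least 1 FPKM (fragments per kilobase of transcript, scaled to the depth of the library) over the 14 livers was reached by 46 members (19 Gst, 16 Ugt and 11 Sult), which were tested among 11354 genes. Of the 13 members below this level, Sult1c1 was listed at 0 in every liver, and 5 reached 1 FPKM in at least 1 liver, the highest being Sult1e1, the estrogen sulfotransferase, with 4.09 FPKM at day 200.

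Of the 14 livers, 11 came from mice with LoxP sites around the miR-122 hairpin on a 129Sv/J background. 3 of these mice were not injected (day 0), 3 were taken 21 days and 3 were taken 45 days after tail vein injection of an AAV8 vector that carries Cre under the ubiquitous Ef1a promoter, and 1 mouse each was taken at day 100 and day 200. The other 3 livers came from germline miR-122 knockout mice, which the labels also place on 129Sv/J and which carried no vector. Uninjected mice were the controls throughout, no mouse received a vector without Cre, and neither sex nor an exact age is stated (the floxed mice were injected as adults), so that the vector and the loss of miR-122 cannot be told apart, nor can the germline deletion and any difference of colony or age. Each library was 1 mouse, and p-values measure the spread between these mice. Cre from a ubiquitous promoter acts in any liver cell the vector enters.

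These enzymes join a polar group to drugs, hormones, bile acids and reactive metabolites so that bile and urine can carry them away. Gst enzymes transfer glutathione to electrophiles such as epoxides and lipid peroxidation products, and their classes (alpha, mu, pi, theta and others) are small gene clusters. Ugt enzymes add a sugar from a UDP-linked donor, glucuronic acid in the Ugt1 and Ugt2 families and mainly other sugars in the Ugt3 family. The Ugt1a genes each have a first exon of their own and share all later exons. Sult enzymes move sulfate from the donor PAPS, Sult1 members mostly to phenols and amines and Sult2 members to steroids and bile acids. In rodent liver many of these genes respond to the sensors NRF2, AHR, CAR and PXR, and several differ between males and females.

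miR-122 made up 59.2 to 73.3% of microRNA reads in the uninjected livers, 8.22 to 13.2% at day 21 and 0.383 to 1.23% at day 45 in small RNA libraries of the same groups (exact two-sided permutation p = 0.1 at both times, the smallest that 3 against 3 mice can give), with 4.46% at day 100 and 19.1% at day 200. The steps between low FPKM values correspond to about 33400000 to 50900000 fragments in the floxed livers and 23300000 to 31100000 in the knockout. Of 9 tested hepatocyte markers none was called at day 45, while albumin (Alb), which hepatocytes normally make in large amounts, was listed at 0 in every library. The summed hepatocyte markers were at 27310 to 32130 FPKM at day 0 and lower, at 19440 to 23870 FPKM, at day 45. Their median log2 fold change at day 45 was −0.21, beside 0.20 for all genes. Y-linked transcripts (Ddx3y, Uty, Kdm5d, Eif2s3y) were present and Xist nearly absent in 4 livers, namely day 0 replicate B, day 21 replicate C, day 45 replicate C and knockout replicate C, and the reverse held in the other 10. Each group of 3 thus held 1 liver with and 2 livers without Y-linked transcripts, whereas the day 100 and 200 livers had none. In knockout replicates A and B the deviation of a gene from the uninjected mean rose with the GC share of its transcript (Spearman rho 0.650 and 0.613 over 11090 genes), but not in knockout replicate C (−0.073), and in the 11 floxed livers rho lay between −0.190 and 0.242. For transcript length rho ran from −0.515 in day 0 replicate A to 0.394 in day 0 replicate B among the floxed livers. It was −0.334, −0.222 and 0.159 in knockout replicates A, B and C. Counts of members called against day 0 are given with and without the Y-linked livers and knockout replicates A and B.

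In the uninjected livers the members together took 1.26 to 1.35% of all FPKM. Gsta3, an alpha class enzyme active on epoxides such as that of aflatoxin, had the highest level with 1557, 1596 and 1404 FPKM in replicates A, B and C (1519 ± 102 FPKM, SD, n = 3). Gstz1, the zeta class isomerase of tyrosine breakdown, followed with 664 ± 93.1 FPKM, below Gsta3 in every liver. The next places were held by Gstm1, the main mu class enzyme, with 467 ± 38.9 FPKM, the theta class Gstt1 with 466 ± 104 FPKM and Ugt2b5, of the subfamily that conjugates steroids, with 456 ± 104 FPKM, which did not differ from each other beyond their spread. Ugt2b36, of the same subfamily, came next with 364 ± 42.9 FPKM, and Ugt1a1, the bilirubin enzyme, with 303 ± 63.8 FPKM. Ugt3a2, which uses a sugar donor other than UDP-glucuronic acid, had 227 ± 12.6 FPKM, and Sult1a1, the phenol sulfotransferase, 230.3 ± 105 FPKM, with overlapping ranges. The pi class Gstp1 (50.2, 449.6 and 50.8 FPKM), the hydroxysteroid enzyme Sult2a2 (185, 0.1 and 156 FPKM) and the amine enzyme Sult3a1 (152, 0.227 and 157 FPKM) had no common level in the 3 uninjected livers: replicate B, with Y-linked transcripts, stood apart in all of them. Of the 3 families the Gst genes summed to 4072 ± 304 FPKM, the Ugt genes to 2352 ± 245 and the Sult genes to 608 ± 369.8.

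At day 45, when the miR-122 share was lowest, 3 of 4 alpha and 4 of 7 mu class Gst genes were called higher than in uninjected livers, and the 2 Ugt3 genes, 2 Sult genes and 2 other Gst genes were called lower. limma (adjusted p below 0.05, Benjamini-Hochberg over all 11354 genes) called 10 of 46 members higher, or Gsta1, Gsta2, Gsta4, Gstm1, Gstm2, Gstm3, Gstm5, Gstt2, Ugt1a7c and Ugt1a9, against a background of 23.7% of all genes. It called 6 lower, namely Gstm7, Gsto1, Ugt3a1, Ugt3a2, Sult1c2 and Sult5a1, against a background of 2.99%. In this fit the share of members called higher was close to that of all genes, and the share called lower was above it. With each library corrected for GC and length, 8 of 45 members were higher and 12 lower, beside 17.2% and 19.4% of all genes. The share called lower thus lay much nearer to that of all genes. Gsta4 and Ugt1a7c were lost, and Gstk1, Gstz1, Sult1b1, Ugt1a5, Ugt2a3 and Ugt2b1 were gained. By family, 8 of 19 Gst genes were higher and 2 lower, 2 of 16 Ugt genes were higher and 2 lower, and 0 of 11 Sult genes were higher and 2 lower. The median log2 fold change was 0.54 for Gst, −0.14 for Ugt and −0.77 for Sult genes, and −0.081 for all 46 members, beside 0.20 for all genes tested. With the libraries centred on their medians, which removes that shift, the split of the calls turned to 6 higher and 9 lower (14.5% and 7% of all genes in that fit): Gsta4, Gstm1, Gstm5 and Gstt2 were no longer called higher, and Gstz1, Ugt1a5 and Ugt2b1 were called lower. Without day 45 replicate B 7 members and 15.7% of all genes were called, and without day 0 replicate C 9 members and 21%. In the 10 livers without Y-linked transcripts 9 members were higher and 11 lower (24.7% and 4.74% of all genes). There Gsta4 (0.74, adjusted p = 0.079), Gstm5 (0.60, adjusted p = 0.064), Gstt2 (0.69, adjusted p = 0.055) and Sult5a1 (−1.93, adjusted p = 0.06) were no longer called. A further 8 members were gained, namely Gstp1, Sult2a2, Sult3a1, Ugt1a5, Ugt2a3, Ugt2b1, Ugt2b35 and Ugt2b38. Without knockout replicates A and B, which enter the shared spread, 12 members were higher and 10 lower (32.5% and 5.87% of all genes), with all 16 calls kept.

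Markers of cells other than hepatocytes rose in the same livers. At day 45 limma called 6 of 7 cholangiocyte, 10 of 10 macrophage, 8 of 8 lymphocyte, 9 of 9 stellate and fibroblast and 3 of 8 endothelial markers higher and none lower. The summed cholangiocyte markers, with Spp1 (osteopontin) as the most abundant, were at 50.7 to 65.8 FPKM at day 0 and 415 to 1356 FPKM at day 45. Proliferation markers were higher in 4 of 4 cases but summed to 20.5 FPKM at most. Alb was the only gene of these lists at 0 in all libraries. The part of these cells in the levels of the members was not tested, and in whole tissue fewer cells of a type and less RNA per cell cannot be told apart.

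**Figure D1:**
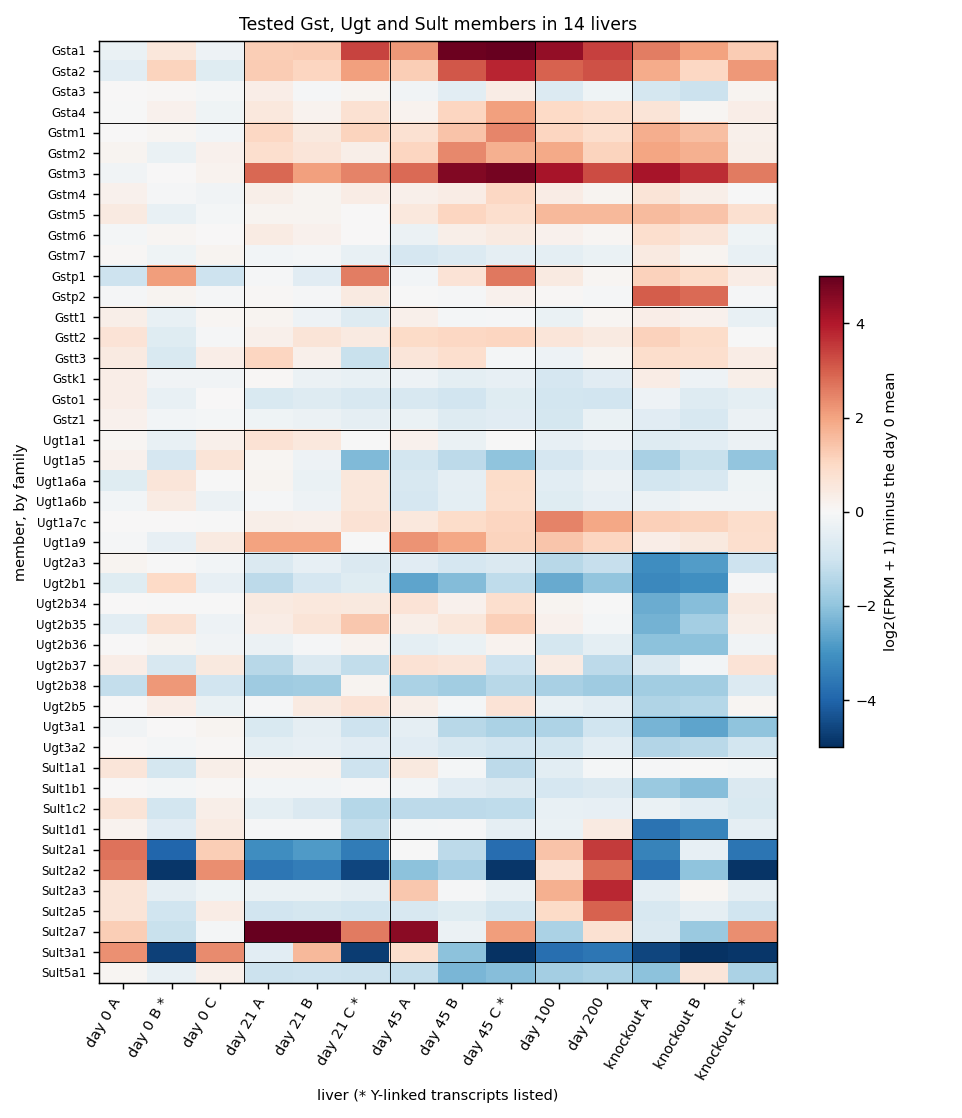
Each row is 1 of the 46 tested members and each column 1 liver, and the colour gives log2(FPKM + 1) minus the mean of the 3 uninjected livers, with asterisks on the 4 livers that list Y-linked transcripts. Gsta1, Gsta2 and Gstm3 are red in every liver from day 21 on, the 2 Ugt3 genes are blue there, and Ugt2a3, Ugt2b1 and Ugt2b36 are bluest in knockout replicates A and B.

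Gsta1 and Gsta2, alpha class genes close to each other on chromosome 9 (mm9 chr9:78078476-78090490 on the plus and chr9:78178827-78194952 on the minus strand), encode closely related enzymes that act on lipid hydroperoxides. Gsta1 was close to 0 in uninjected livers, with 0.046, 0.947 and 0.102 FPKM, and had 2.06, 2.15 and 12.6 FPKM at day 21 and 4.88, 37.9 and 62.5 FPKM at day 45. It was at 26.7 FPKM at day 100, 13.0 FPKM at day 200 and 6.77, 4.32 and 2.12 FPKM in the knockout. Every liver without normal miR-122 was above every uninjected liver. The rise at day 45 was 18.6-fold on the log2(FPKM + 1) scale, which understates changes of low genes (log2 fold change 4.22, SE 0.79, adjusted p = 0.0025). Of its read-length windows 81.7% also occur in another gene (Gsta2 and 2 gene models next to it), so reads of Gsta1 and Gsta2 could be split between them in either direction.

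Gsta2 had 7.31, 24.7 and 6.77 FPKM at day 0 and 26.8, 102 and 164 FPKM at day 45, with no overlap between the groups (log2 fold change 2.71, SE 0.61, adjusted p = 0.0061). The calls of both genes at day 45 were kept in every alternative, including the fits without any 1 liver and the fit of the 10 livers without Y-linked transcripts (log2 fold change 3.82 and 2.73). Gsta4, which detoxifies the lipid aldehyde 4-hydroxynonenal, had 60, 71.1 and 52.5 FPKM at day 0 and 69.5, 128 and 253 FPKM at day 45. Its lowest day 45 liver lay inside the uninjected range (log2 fold change 1.10, SE 0.36, adjusted p = 0.038), and the call was lost in each refit that left out 1 liver except those without day 21 replicate B, day 21 replicate C, day 45 replicate A, knockout replicate A, knockout replicate B or knockout replicate C (log2 fold change 0.63 to 1.21). Gsta3, the most abundant alpha class gene, showed no such shift: its day 45 values of 1324, 1056 and 1966 FPKM spanned the uninjected ones (log2 fold change −0.11, SE 0.31, adjusted p = 0.85). The summed alpha class genes did not differ beyond the spread, at 1593 ± 118 FPKM at day 0 and 1731 ± 619.9 FPKM at day 45.

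The 7 mu class genes lie side by side on chromosome 3 (mm9 chr3:107698772-107847777) and did not move together. Gstm3 changed most, from 20.6, 23.7 and 26.1 FPKM at day 0 to 176, 99.7 and 134 FPKM at day 21 and 172, 598 and 679 FPKM at day 45. It had 428 and 235 FPKM at days 100 and 200 and 419.8, 314 and 147 FPKM in the knockout. All 11 of these livers were above the 3 uninjected ones. The rise at day 45 was 17.0-fold (log2 fold change 4.08, SE 0.50, adjusted p = 0.00036), and its calls at day 45, at days 100 and 200 and in the knockout were kept in every alternative. Only 3.33% of its read-length windows are shared with other genes.

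Gstm1 had 478, 499.9 and 424 FPKM at day 0 and 783, 1253 and 2562 FPKM at day 45 (log2 fold change 1.54, SE 0.43, adjusted p = 0.019). With a mean of 1533 ± 922 FPKM it became the member with the highest level at day 45, just above Gsta3, from which it did not differ beyond the spread. Gstm2 had 43.4, 31.1 and 45.8 FPKM at day 0 and 85.2, 216 and 139 FPKM at day 45 (log2 fold change 1.76, SE 0.42, adjusted p = 0.009). Both groups were apart in each gene, but the call of Gstm1 was lost without day 0 replicate C, day 45 replicate B or day 45 replicate C (log2 fold change 1.09 to 1.60) and that of Gstm2 without day 45 replicate B (log2 fold change 1.44). Gstm5, a mu class gene known best from brain and testis, went from 25.3, 13.6 and 16.9 to 26.3, 38.5 and 32.8 FPKM (log2 fold change 0.80, SE 0.24, adjusted p = 0.027), a call lost without day 0 replicate B, day 0 replicate C, day 45 replicate B or day 45 replicate C (log2 fold change 0.61 to 0.79). Gstm7 moved the other way, from 62.0, 50.9 and 65.7 to 32.9, 36.8 and 43.3 FPKM (log2 fold change −0.65, SE 0.20, adjusted p = 0.033), with the call lost without day 0 replicate A, day 0 replicate C, day 45 replicate A or day 45 replicate B (log2 fold change −0.64 to −0.56). The 2 remaining genes, Gstm4 and Gstm6, had log2 fold changes of 0.54 and 0.16 and were not called. Summed over the class, mu transcripts stood at 779 ± 34.3 FPKM at day 0, 1336 ± 224 at day 21 and 2453 ± 1238 at day 45, or 3.15-fold above day 0.

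**Figure D2:**
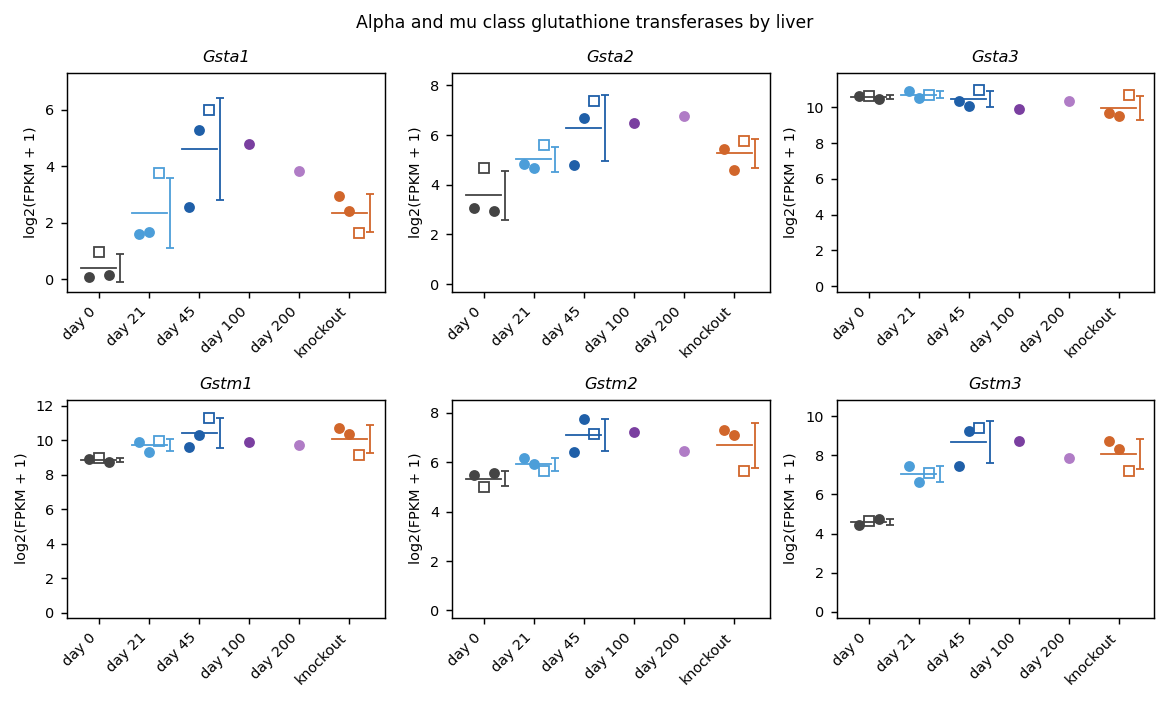
Each panel shows log2(FPKM + 1) of 1 gene by group, with 1 point per liver (open squares, livers with Y-linked transcripts), lines at the group means and bars for the SD of the 3 livers. Gsta1 rises from near 0 and Gstm3 from about 4.6 to 8.7 at day 45, whereas Gsta3 stays above 9 in all 14 livers.

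Because members of 1 class moved unlike each other, the DNA just before their start sites is shown for the alpha class genes with the largest rise (Gsta1) and the highest level (Gsta3), and for the mu class genes Gstm3 and Gstm5. The sequences are the 250 bases before the annotated start, from RefSeq on GRCm38.p6, 5′ to 3′ on the gene's own strand. Capitals mark matches, on either strand, to the antioxidant response element bound by NRF2 (TGACNNNGC), the xenobiotic response element bound by AHR (GCGTG), a core motif of the hepatocyte factor HNF1 (GTTAAT) and the TATA box (TATAAA).
Gsta1, chr9:78230419-78230668, plus strand: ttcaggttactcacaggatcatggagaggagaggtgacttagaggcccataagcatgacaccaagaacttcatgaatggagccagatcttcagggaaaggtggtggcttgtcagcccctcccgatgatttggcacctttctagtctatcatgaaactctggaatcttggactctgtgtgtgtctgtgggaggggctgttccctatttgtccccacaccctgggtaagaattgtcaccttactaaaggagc
Gsta3, chr1:21240335-21240584, plus strand: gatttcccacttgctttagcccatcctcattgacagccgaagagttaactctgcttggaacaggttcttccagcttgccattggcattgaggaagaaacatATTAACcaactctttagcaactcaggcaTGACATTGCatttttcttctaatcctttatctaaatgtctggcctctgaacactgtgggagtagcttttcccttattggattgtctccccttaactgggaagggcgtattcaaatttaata
Gstm3, chr3:107969175-107969424, minus strand: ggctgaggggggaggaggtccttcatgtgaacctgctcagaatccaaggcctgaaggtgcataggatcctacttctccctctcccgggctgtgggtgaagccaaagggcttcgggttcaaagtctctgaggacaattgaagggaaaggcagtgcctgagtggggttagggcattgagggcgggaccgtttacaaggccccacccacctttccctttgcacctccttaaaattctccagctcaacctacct
Gstm5, chr3:107895604-107895853, plus strand: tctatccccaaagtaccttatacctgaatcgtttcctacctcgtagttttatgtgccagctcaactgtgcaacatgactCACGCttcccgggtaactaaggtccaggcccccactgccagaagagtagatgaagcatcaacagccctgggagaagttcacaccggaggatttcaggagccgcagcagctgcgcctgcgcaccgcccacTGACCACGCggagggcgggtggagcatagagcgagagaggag
Gsta1 and Gstm3, the members with the largest rises at day 45, held no match to these motifs in this window. Gsta3, which was not called at day 45, held an antioxidant element match and a HNF1 motif. In Gstm5 an antioxidant element match overlaps 1 of 2 xenobiotic element matches. RefSeq promoters were found for 51 of the 59 member symbols (61 start sites). An antioxidant element match was in 3 of these 61 (4.92%) and in 10.2% of all 32851 promoters, and a xenobiotic element match in 9 (14.8%) and in 28.2% of all. A HNF1 motif was in 13 (21.3%) and in 6.43% of all, and a TATA box in 9 (14.8%) and in 12.4% of all. A match is a run of letters and not a bound site.

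Among the remaining Gst classes, Gstt2, a theta class enzyme, had 71.8, 28.6 and 42.6 FPKM at day 0 and 88.4, 91.8 and 94.1 FPKM at day 45, with no overlap (log2 fold change 1.02, SE 0.32, adjusted p = 0.032), and lost its call without day 0 replicate B, day 0 replicate C, day 45 replicate A, day 45 replicate B or day 45 replicate C (log2 fold change 0.71 to 1.05). Gstt1, the theta class gene with the highest level, had 542, 427 and 435 FPKM, within the uninjected range of 352 to 556 FPKM (log2 fold change 0.024, SE 0.26, adjusted p = 0.97). Gsto1, the omega class enzyme that reduces dehydroascorbate, had 141, 86.7 and 113 FPKM at day 0 and 63.2, 56.9 and 72.7 FPKM at day 45. All day 45 livers were below all uninjected livers (log2 fold change −0.79, SE 0.18, adjusted p = 0.007), and this call was kept in every alternative. Gstz1 went from 772, 607 and 614 to 531, 421 and 448 FPKM, also without overlap, but was not called (log2 fold change −0.51, SE 0.19, adjusted p = 0.074). It was called with median-centred libraries (log2 fold change −0.74).

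Of the Ugt1 genes, Ugt1a9, which conjugates bulky phenols, had 38.4, 30.5 and 55.9 FPKM at day 0, 165, 167 and 39.7 FPKM at day 21 and 193, 157 and 88.7 FPKM at day 45, with every day 45 liver above every uninjected one (log2 fold change 1.76, SE 0.48, adjusted p = 0.016). The call at day 45 was lost without day 0 replicate B, day 45 replicate A or day 45 replicate B (log2 fold change 1.52 to 1.67). Ugt1a7c was low, with 0.18, 0.182 and 0.17 FPKM at day 0 and 0.694, 1.23 and 1.51 FPKM at day 45, and the groups did not overlap (log2 fold change 0.85, SE 0.20, adjusted p = 0.0076). It was not called after a correction for GC and length (0.65, adjusted p = 0.066). Ugt1a1 had 342, 239.9 and 294 FPKM at day 45, around its uninjected values of 322, 232 and 355 FPKM (log2 fold change −0.047, SE 0.23, adjusted p = 0.92). Ugt1a5 had 65.3, 31.3 and 89.3 FPKM at day 0 and 30.0, 22.4 and 13.4 FPKM at day 45 and missed the threshold (log2 fold change −1.40, SE 0.54, adjusted p = 0.077). Between 57.2 and 86.0% of the read-length windows of a Ugt1a gene occur in the others, through the shared exons, so how their reads were divided is uncertain.

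The 2 Ugt3 genes, next to each other on chromosome 15 (mm9 chr15:9209584-9244791 and chr15:9265353-9300625), fell together. Ugt3a1, which transfers N-acetylglucosamine, had 29.7, 34.4 and 36.8 FPKM at day 0, 19.1, 24.5 and 15.7 FPKM at day 21, 23.9, 12.2 and 10.4 FPKM at day 45, 11.0 and 16.2 FPKM at days 100 and 200 and 5.97, 4.55 and 7.51 FPKM in the knockout. Ugt3a2 had 233, 212 and 235 FPKM at day 0, 160.5, 172 and 154 at day 21, 155, 131 and 116 at day 45, 119.5 and 157 at days 100 and 200 and 81.0, 87.9 and 118 in the knockout. In both genes each of the 11 livers lay below all 3 uninjected livers. The falls at day 45 were 2.22-fold (log2 fold change −1.15, SE 0.28, adjusted p = 0.01) and 1.70-fold (log2 fold change −0.76, SE 0.18, adjusted p = 0.0075). The call of Ugt3a1 was lost without day 45 replicate B (log2 fold change −1.03), and that of Ugt3a2 was kept in every alternative.

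None of the 8 tested Ugt2 genes was called in either direction at day 45 by limma, where the unadjusted p was below 0.05 for Ugt2b1 only. Ugt2b1 was the member of the family with the largest change, from 123, 371 and 140.3 to 29.1, 41.0 and 76.3 FPKM (log2 fold change −2.02, SE 0.71, adjusted p = 0.053). Its highest uninjected value came from the liver with Y-linked transcripts, and without the 4 such livers it was called (log2 fold change −1.90, adjusted p = 0.0017). Ugt2a3 had 134, 111 and 123 FPKM at day 45, all below its 222, 199.8 and 186 FPKM at day 0. It was called lower without the Y-linked livers and with GC and length corrected. Ugt2b34 had 347, 251 and 382 FPKM at day 45, all above its 219, 213 and 210 FPKM at day 0. Ugt2b5, the most abundant member of the family, had 555, 419.9 and 723 FPKM at day 45 and overlapped its uninjected values (log2 fold change 0.30, SE 0.38, adjusted p = 0.64).

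Both called Sult genes fell. Sult5a1, an enzyme without a known substrate, had 13.3, 9.17 and 14.9 FPKM at day 0 and 4.72, 1.74 and 2.04 FPKM at day 45 (log2 fold change −1.86, SE 0.53, adjusted p = 0.02). Sult1c2 had 8.11, 2.09 and 6.12 FPKM at day 0 and 1.34, 1.36 and 1.41 FPKM at day 45 (log2 fold change −1.31, SE 0.34, adjusted p = 0.013). Neither pair of groups overlapped, but the call of Sult5a1 was lost without day 0 replicate A, day 0 replicate C, day 45 replicate B or day 45 replicate C (log2 fold change −1.81 to −1.66) and that of Sult1c2 without day 0 replicate A or day 0 replicate C (log2 fold change −1.16 to −0.99). Sult1a1, the most abundant Sult gene, had 293, 199.5 and 84.8 FPKM at day 45 (log2 fold change −0.30, SE 0.47, adjusted p = 0.71). Sult1b1, which sulfates thyroid hormones, had 13.2, 9.53 and 8.25 FPKM against 14.8, 13.4 and 15.2 at day 0 (log2 fold change −0.47, SE 0.29, adjusted p = 0.27), and Sult1d1, which acts on catecholamines, had 69.7, 71.6 and 54.0 FPKM against 85.2, 49.7 and 98.3 (log2 fold change −0.21, SE 0.67, adjusted p = 0.88). Of the Sult2 and Sult3 genes none was called at day 45, and they are described with the Y-linked livers and the late days.

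At day 21, few members had moved past the threshold. limma called Gstm3 higher (1 of 46 members, background 6.2%) and Gsto1 lower (1 of 46, background 1.42%). At an unadjusted p below 0.05 there were 10 members, a level for which the share of all genes is not given. Gstm3 was 5.51-fold higher (log2 fold change 2.46, SE 0.50, adjusted p = 0.013), a call lost without day 0 replicate A, day 0 replicate B or day 21 replicate C (log2 fold change 2.37 to 2.47). Gsto1 had 66.0, 70.5 and 63.7 FPKM, below all uninjected livers (log2 fold change −0.73, SE 0.18, adjusted p = 0.03), with the call lost without day 0 replicate A, day 0 replicate C, day 21 replicate A, day 21 replicate B or day 21 replicate C (log2 fold change −0.77 to −0.56). In the fit of the 10 livers without Y-linked transcripts 7 members and 5.65% of all genes were called, the additional ones being Ugt1a9 higher and Sult1c2, Sult2a1, Sult2a2 and Ugt2b38 lower. Between day 45 and day 21 limma called 0 members higher (background 0.273%) and 0 lower (background 0%). At an unadjusted p below 0.05 there were 6, again without a share of all genes to set beside them. Without day 45 replicate A 2 members (1.59% of all genes) were called, and without knockout replicate C 3 (9.24%). The day 45 and day 21 livers of Gsta1 and Gstm3 overlapped, and those of Gstm2 did not.

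At days 100 and 200, read as 1 group of 2 livers with 1 mouse per time, 8 of 46 members were called higher (background 28.4%) and 7 lower (background 3.21%). Without the day 100 liver 7 members and 14.3% of all genes were called, and with median-centred libraries the split was 7 higher and 10 lower (15.7% and 8.75% of all genes in that fit). With GC and length corrected it was 8 of 45 higher and 12 lower (18.5% and 23% of all genes). Without Y-linked livers it was 12 of 46 higher and 15 lower (33.9% and 5.68%). Without knockout replicates A and B it was 8 higher and 10 lower (38.6% and 5.76%). In the same 2 livers limma called 7 of 7 cholangiocyte, 8 of 8 lymphocyte, 9 of 9 stellate and fibroblast, 6 of 10 macrophage, 4 of 4 proliferation and 3 of 8 endothelial markers higher and none of them lower. Of 9 hepatocyte markers 0 were higher and 1 lower. The summed cholangiocyte markers stood at 2950 FPKM at day 100 and 1946 FPKM at day 200, above every day 45 liver. The part of these cells in the members' late values was not tested. Of the alpha class 2 of 4 genes (Gsta1 and Gsta2) and of the mu class 3 of 7 (Gstm2, Gstm3 and Gstm5) were called higher, while Gsta3 and Gstm7 lay below day 0 in both livers. Gsta2 had 89.6 and 108 FPKM (log2 fold change 3.07, SE 0.68, adjusted p = 0.0044), Gstm5 56.8 and 58.1 FPKM (log2 fold change 1.62, SE 0.27, adjusted p = 0.00081) and Ugt1a7c 5.65 and 3.45 FPKM (log2 fold change 2.21, SE 0.22, adjusted p = 6.83e-05). These 3 calls and those of Gstm3 (3.71) and, downward, Gsto1 (−0.94) were kept in every alternative. Ugt1a7c reached the mean of 1 FPKM only through these 2 livers, so the filter let it in by the values then tested. Gsta1 (3.91) was called, but not without day 100 (log2 fold change 3.42). Gstm2 (log2 fold change 1.5) lost its call without day 0 replicate A, day 0 replicate B or day 100 (log2 fold change 1.11 to 1.57). Gstm1, at 975 and 837 FPKM, was above all uninjected livers and not called (log2 fold change 0.95, SE 0.48, adjusted p = 0.16).

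The falling members at these times were Ugt2b1 (−2.24), Ugt2a3 (−1.27), Ugt3a1 (−1.26), Gsto1, Ugt3a2 (−0.72), Gstk1 (−0.71), the kappa class enzyme of mitochondria and peroxisomes, and Gstz1 (−0.62). The values are log2 fold changes. The call of Ugt3a1 was lost without day 100 (log2 fold change −1.0) and that of Ugt3a2 without day 100 (log2 fold change −0.53). That of Ugt2a3 was lost in each refit that left out 1 liver except those without knockout replicate A, knockout replicate B or knockout replicate C (log2 fold change −1.37 to −1.16), that of Ugt2b1 in each refit that left out 1 liver except those without knockout replicate A, knockout replicate B or knockout replicate C (log2 fold change −2.53 to −1.74) and that of Gstz1 in each refit that left out 1 liver except those without day 200, knockout replicate B or knockout replicate C (log2 fold change −0.68 to −0.34). Gstk1 lost its call without day 0 replicate A, day 21 replicate B, day 100 or day 200 (log2 fold change −0.85 to −0.54). The 2 late livers differed from each other in the hydroxysteroid genes Sult2a3 (3.65 FPKM at day 100, 17.7 at day 200) and Sult2a5 (2.89 and 14.5 FPKM). Both were called higher (2.78 and 1.97), Sult2a5 not without day 200 (log2 fold change 0.98). They reached the mean of 1 FPKM only through the 2 late livers, so the filter let them in by the values then tested. With no filter they were called too. Both late livers lacked Y-linked transcripts. Against the 2 uninjected livers that lacked them, the log2 fold changes were 2.56 and 1.48.

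In the germline knockout 7 of 46 members were called higher (background 19.3%) and 9 lower (background 14.5%), with median log2 fold changes of 0.68 for Gst, −1.25 for Ugt and −1.0 for Sult genes, −0.37 for all 46 and 0.016 for all genes. Gsta2, Gstm1, Gstm2, Gstm3, Gstm5 and Ugt1a7c were higher here as well as at day 45, and Ugt3a1 and Ugt3a2 were lower in both. The 2 comparisons share the uninjected livers. Gstp2 was the other gene called higher in the knockout, and Sult1d1, Sult1b1, Ugt1a5, Ugt2a3, Ugt2b1, Ugt2b36 and Gstz1 were the others called lower. The count depended on single livers: 7 members were called without knockout replicate A, 8 without B, 8 without day 0 replicate C, 10 without day 0 replicate A and 31 without the 4 livers with Y-linked transcripts. Of all genes, these fits called 17.5, 14.4, 22.4, 25.8 and 57.4% in the same order.

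Gstm3 rose 11.1-fold in the knockout (log2 fold change 3.47, SE 0.50, adjusted p = 0.00062). Gstm1 had 1653, 1331 and 558 FPKM in knockout replicates A, B and C (log2 fold change 1.20, SE 0.43, adjusted p = 0.048), Gstm2 156, 137 and 49.1 FPKM (log2 fold change 1.34, SE 0.42, adjusted p = 0.03) and Gstm5 55.4, 50.7 and 31.9 FPKM (log2 fold change 1.27, SE 0.24, adjusted p = 0.003). In each of these genes replicate C was the lowest of the 3 and above every uninjected liver. With replicate C as the only knockout liver the log2 fold changes were 0.26 for Gstm1, 0.30 for Gstm2, 0.79 for Gstm5, 2.18 for Gsta2 and 0.88 for Ugt1a7c, none of them called. Gsta2, with 41.9, 23.3 and 52.6 FPKM, had 1 liver below the highest uninjected liver (log2 fold change 1.69, SE 0.61, adjusted p = 0.048). Gsta1 did not pass the threshold (log2 fold change 1.95, SE 0.79, adjusted p = 0.072). The call of Gsta2 was lost in each refit that left out 1 liver except those without day 0 replicate B, day 45 replicate A or day 45 replicate C (log2 fold change 1.39 to 2.02), that of Gstm1 in each refit that left out 1 liver except those without day 45 replicate A, day 45 replicate C or knockout replicate C (log2 fold change 0.89 to 1.25) and that of Gstm2 without day 0 replicate A, day 0 replicate B, day 0 replicate C, knockout replicate A or knockout replicate B (log2 fold change 1.04 to 1.45). Gstp2, a near copy of Gstp1 with 57.5% of its read-length windows shared, was at 7.42, 6.43 and 0 FPKM in the knockout and at most 0.443 FPKM in any floxed liver (log2 fold change 1.93, SE 0.59, adjusted p = 0.026). It was high in replicates A and B and listed at 0 in C, and the sign turned to −0.061 without replicates A and B. Gstp2 reached the mean of 1 FPKM only through replicates A and B, so the filter let it in by the values then tested. With no filter it was called too. Its call was also lost without day 0 replicate A, day 0 replicate B, day 0 replicate C, knockout replicate A or knockout replicate B (log2 fold change 1.39 to 1.99). Ugt1a7c had 1.70, 1.52 and 1.16 FPKM, well apart from day 0 (log2 fold change 1.06, SE 0.20, adjusted p = 0.0027).

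The 9 falls in the knockout were in 6 Ugt genes, 2 Sult genes and Gstz1, and all but that of Ugt1a5 were deepest in replicate A or B. Ugt2a3 had 222, 199.8 and 186 FPKM at day 0 and 22.6, 28.2 and 96.9 FPKM in the knockout (log2 fold change −2.32, SE 0.39, adjusted p = 0.0016), below the uninjected livers in all 3 and called in every alternative. Ugt2b36 had 370.4, 403 and 318 FPKM at day 0 and 86.6, 87.4 and 323 FPKM in the knockout (log2 fold change −1.42, SE 0.41, adjusted p = 0.021), and replicate C lay inside the uninjected range. Ugt2b1 had 19.1, 21.4 and 179 FPKM (log2 fold change −2.11, SE 0.71, adjusted p = 0.039), again with replicate C inside that range. The same held for the catecholamine enzyme Sult1d1, with 4.91, 6.61 and 55.0 FPKM (log2 fold change −2.48, SE 0.67, adjusted p = 0.016). Sult1b1, at 3.25, 2.57 and 8.42 FPKM, was below day 0 in all 3 livers (log2 fold change −1.56, SE 0.29, adjusted p = 0.0025). Ugt1a5 had 18.1, 25.4 and 13.8 FPKM (log2 fold change −1.57, SE 0.54, adjusted p = 0.043) and Gstz1 445, 383 and 533 FPKM (log2 fold change −0.55, SE 0.19, adjusted p = 0.045), both below the uninjected livers in every mouse. The call of Ugt2b1 was lost in each refit that left out 1 liver except those without day 0 replicate A, day 21 replicate A, day 21 replicate C, day 45 replicate A, day 45 replicate C or knockout replicate C (log2 fold change −2.31 to −1.56). That of Ugt1a5 was lost in each refit that left out 1 liver except those without day 0 replicate B, day 21 replicate A, day 21 replicate B, day 21 replicate C or day 45 replicate C (log2 fold change −1.78 to −1.24). That of Gstz1 was lost in each refit that left out 1 liver except those without day 100, day 200 or knockout replicate C (log2 fold change −0.61 to −0.44). Sult1d1 lost its call without day 0 replicate C, knockout replicate A or knockout replicate B (log2 fold change −2.28 to −1.87), and Ugt2b36 without day 0 replicate A, day 0 replicate B, knockout replicate A or knockout replicate B (log2 fold change −1.40 to −1.10). The Ugt3 genes fell 4.99-fold (log2 fold change −2.32, SE 0.28, adjusted p = 0.00019) and 2.38-fold (log2 fold change −1.25, SE 0.18, adjusted p = 0.00059) and were called in every alternative.

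The members' changes in the knockout went with the GC share of their transcripts in replicates A and B, in the same direction as those of all genes. The members lay further from day 0 in the lowest and the next to highest quintile, and in replicate A also in the middle quintile (0.66 beside −0.022). In replicate C the median of the members in the lowest quintile lay below day 0 and that of all genes did not. Of the 45 tested members with a GC value, 19 lay in the quintile of genes with the lowest GC share (below 44.5%), where 1 was called higher and 7 lower with a median log2 fold change of −1.39. The median deviation of these 19 from day 0 was −2.05 in knockout replicate A, −1.73 in B and −0.67 in C, beside −0.98, −0.74 and 0.093 for all genes of that quintile. In the next to highest quintile 3 of 10 members were higher and none lower (median 0.69), with member medians of 1.01, 0.88 and −0.015 in A, B and C beside 0.37, 0.37 and 0.038 for all genes. The share of all genes called in each quintile is not given, so these counts of called members cannot be set against it. All 8 Ugt2 genes (at most 41.6%), both Ugt3 genes and the tested Sult2 and Sult3 genes with a GC value fell in the lowest quintile, and all Gst genes had at least 45.3%, so the family and the GC share cannot be told apart in replicates A and B. After each library was corrected for GC and length, 14 members (41.8% of all genes) were called, 12 of them the same: Gsta2, Gstm1, Ugt1a5 and Ugt2b1 were lost, and Gsto1 and Sult5a1 were gained as lower. Sult5a1 had 2.17, 19.2 and 3.45 FPKM in the knockout, with replicate B above every uninjected liver, so that the groups overlapped. With replicate C as the only knockout liver 5 were called (5.91% of all genes), Gstm3 higher (2.61) and Ugt3a1 (−2.02), Sult5a1 (−1.57), Ugt2a3 (−1.05) and Ugt3a2 (−0.93) lower, under the assumption that a lone liver varies like the other groups. In that fit Ugt2b36 was at −0.16, Ugt2b1 at −0.053, Sult1d1 at −0.43, Sult1b1 at −0.71, Ugt1a5 at −1.97 and Gstz1 at −0.31, and none of these was called.

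**Figure D3:**
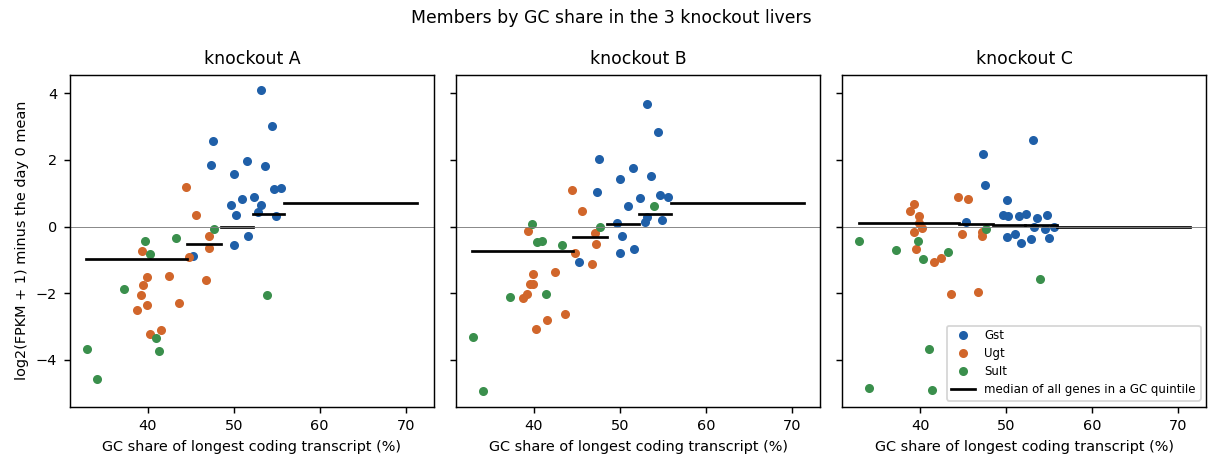
Each panel is 1 knockout liver, with the GC share of each member's longest coding transcript (%) on the x axis and its log2(FPKM + 1) minus the uninjected mean on the y axis, and black bars for the median of all genes in each quintile of GC share. Points and bars climb with GC share in replicates A and B. In replicate C the bars stay near 0, and the medians of the members are −0.67, −0.079, 0.30 and −0.015 from the lowest quintile to the highest that holds members.

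**Figure D4:**
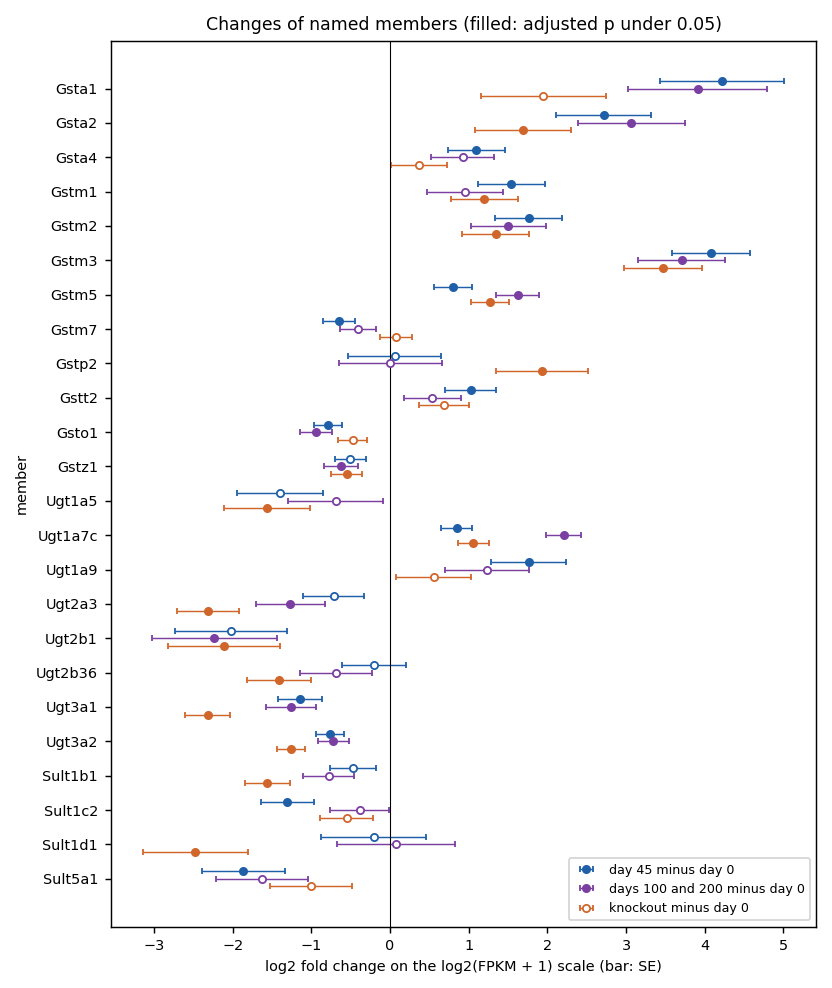
The log2 fold changes (with SE bars) of 24 members against day 0 at day 45, at days 100 and 200 and in the knockout, filled where the adjusted p was below 0.05. Gstm3 and Gsta2 are filled to the right and Ugt3a1 and Ugt3a2 to the left in all 3 comparisons, while Sult1b1, Sult1d1 and Ugt2b36 are filled in the knockout alone.

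The promoters of the falling Ugt genes are shown for Ugt2a3 and Ugt3a1, which were lower in the knockout in every alternative, again as the 250 bases before the RefSeq start with the same marking.
Ugt2a3, chr5:87337196-87337445, minus strand: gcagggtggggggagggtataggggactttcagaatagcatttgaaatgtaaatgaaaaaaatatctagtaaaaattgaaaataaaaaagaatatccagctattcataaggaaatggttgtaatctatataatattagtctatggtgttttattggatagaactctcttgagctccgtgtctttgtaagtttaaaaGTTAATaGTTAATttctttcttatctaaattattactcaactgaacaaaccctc
Ugt3a1, chr15:9279579-9279828, plus strand: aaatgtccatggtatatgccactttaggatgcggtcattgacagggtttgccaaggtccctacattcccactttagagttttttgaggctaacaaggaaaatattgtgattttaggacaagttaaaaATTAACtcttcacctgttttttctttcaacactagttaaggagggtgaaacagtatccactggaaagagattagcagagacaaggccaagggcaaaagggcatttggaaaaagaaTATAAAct
Ugt2a3 held 2 HNF1 motifs and Ugt3a1 held 1, together with a TATA box match close to the start. Neither held an antioxidant or xenobiotic element match.

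Compared directly, the knockout and day 45 differed in 5 of 46 members. Gstm7 was called higher in the knockout (1 of 46, background 1.21%), with 80.8, 65.5 and 45.3 FPKM against 32.9, 36.8 and 43.3 at day 45 (log2 fold change 0.72, SE 0.20, adjusted p = 0.047). Called lower (4 of 46, background 8.23%) were Ugt2b34 (log2 fold change −1.97, SE 0.55, adjusted p = 0.045), Ugt2a3 (log2 fold change −1.60, SE 0.39, adjusted p = 0.03), Ugt3a1 (log2 fold change −1.17, SE 0.28, adjusted p = 0.029) and Sult1b1 (log2 fold change −1.09, SE 0.29, adjusted p = 0.039). Ugt2b34 had 347, 251 and 382 FPKM at day 45 and 37.3, 48.1 and 294 FPKM in the knockout, so that replicate C lay among the day 45 livers. None of the 5 was called in a fit with replicate C as the lone knockout liver, where 2.61% of all genes were called. There the log2 fold changes were −0.87 for Ugt3a1, −0.33 for Ugt2a3, 0.27 for Gstm7, −0.24 for Sult1b1 and −0.13 for Ugt2b34. Ugt3a1 kept most of its difference in that fit, but over all alternatives it ranged from −1.55 to −0.64. The other 4 came closer to 0, and a lone liver leaves little power. Ugt2a3 and Gstm7 were the ones called after the GC correction. Without replicate C 15 members and 52.2% of all genes were called. With median-centred libraries, which take out a shift of −0.23 in the median of all genes, Gstm7 alone was called (1 higher and 0 lower). The call of Gstm7 was also lost in each refit that left out 1 liver except those without knockout replicate C (log2 fold change 0.53 to 0.82), that of Sult1b1 in each refit that left out 1 liver except those without knockout replicate C (log2 fold change −1.23 to −0.82), that of Ugt2b34 in each refit that left out 1 liver except those without knockout replicate C (log2 fold change −2.15 to −1.42), that of Ugt2a3 without day 45 replicate A, day 45 replicate B, day 45 replicate C, knockout replicate A or knockout replicate B (log2 fold change −1.67 to −1.21) and that of Ugt3a1 without day 45 replicate A, day 45 replicate B, knockout replicate A or knockout replicate B (log2 fold change −1.29 to −0.83).

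Some members differed more between livers with and without Y-linked transcripts than between days. Gstp1 had 449.6, 627 and 657 FPKM in the floxed livers with Y-linked transcripts at days 0, 21 and 45, and between 50.2 and 169 FPKM in the 8 without them. In the knockout this order was absent, since replicate C with Y-linked transcripts had 135 FPKM and replicates A and B 233 and 202. Over all livers Gstp1 was not called at day 45 (log2 fold change 1.06, SE 0.95, adjusted p = 0.48) or in the knockout (log2 fold change 0.81, SE 0.95, adjusted p = 0.52). Among livers without Y-linked transcripts, 2 per group, it was higher at day 45 (log2 fold change 1.32, adjusted p = 0.0078), at days 100 and 200 (1.32, adjusted p = 0.0049) and in the knockout (2.08, adjusted p = 0.00029). Ugt2b38, known as a male-biased gene of mouse liver, had 15.0 FPKM in day 0 replicate B and 0.572 and 0.84 in A and C. With Y-linked transcripts it had 2.91 FPKM at day 21, 0.368 at day 45 and 1.25 in the knockout. The other livers of these groups had 0.058 and 0.085, 0.189 and 0.065, and 0.064 and 0.081 FPKM. The liver with Y-linked transcripts was thus the highest in each of the 4 groups, but at day 45 it lay below all uninjected livers.

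Sult2a2, a hydroxysteroid enzyme, had the opposite order, and so did Sult3a1 in the floxed livers. Sult2a2 was at 185, 0.1 and 156 FPKM at day 0, 1.56, 1.90 and 0.313 at day 21, 6.74, 8.92 and 0.093 at day 45, 51.7 and 222 at days 100 and 200 and 1.38, 6.88 and 0.057 in the knockout. In every group of 3 the liver with Y-linked transcripts was the lowest. Among the 10 livers without them, the uninjected ones stood above all of days 21 and 45 and the knockout, and Sult2a2 was called lower at day 45 (−4.29, adjusted p = 0.0029) and in the knockout (−5.30, adjusted p = 0.00021), whereas day 200 was above both uninjected livers. Over all 14 livers it was not called (log2 fold change −2.86 and −3.55). Of its read-length windows 35.6% are shared with other Sult2a genes.

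Sult3a1 was at 152, 0.227 and 157 FPKM at day 0, 20.2, 94.9 and 0.149 at day 21, 54.9, 6.37 and 0 at day 45, 1.26 and 1.56 at days 100 and 200 and 0.298, 0 and 0.068 in the knockout. Unlike Sult2a2 it was low in both late livers. Without the Y-linked livers it was called lower at day 45 (−2.94, adjusted p = 0.031), at days 100 and 200 (−6.01, adjusted p = 0.00098) and in the knockout (−7.09, adjusted p = 0.0002), and over all livers in none of them (adjusted p = 0.51, 0.23 and 0.073). In the knockout its liver with Y-linked transcripts was not the lowest. Sult2a7 differed from Sult2a2, with 8.35, 0.853 and 2.73 FPKM at day 0, 168, 138 and 23.3 at day 21, 89.6, 2.32 and 16.2 at day 45 and 1.41, 0.11 and 18.9 in the knockout, where replicate C was the highest. Its day 45 replicate B lay inside the uninjected range, and it was not called at either time (4.37, adjusted p = 0.061, and 2.11, adjusted p = 0.27). The summed FPKM of 16 male-biased liver genes were 17400, 18570 and 11860 in the Y-linked livers of days 0, 21 and 45, and 2796 to 5874 in the floxed livers without these transcripts, and those of 13 female-biased genes were 16.9 to 86.6 and 615 to 2410. At day 45 none of the male-biased genes was higher and 1 lower, and 1 of the female-biased genes was higher and none lower (23.7% and 2.99% of all genes). Without the Y-linked livers 2 male-biased genes were higher and 5 lower, and 3 female-biased genes were higher and 1 lower (24.7% and 4.74% of all genes). In the knockout 2 male-biased genes were lower and 1 female-biased gene higher (14.5% lower and 19.3% higher of all genes). Without the Y-linked livers 3 male-biased genes were higher there and 6 lower, and 2 female-biased genes were higher and 3 lower (28.6% and 28.8% of all genes). Knockout replicates A, B and C had male-biased sums of 5483, 9134 and 10510 and female-biased sums of 1600, 1350 and 484. The male-biased sum of replicate B, without Y-linked transcripts, thus lay above those of the floxed livers without them.

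**Figure D5:**
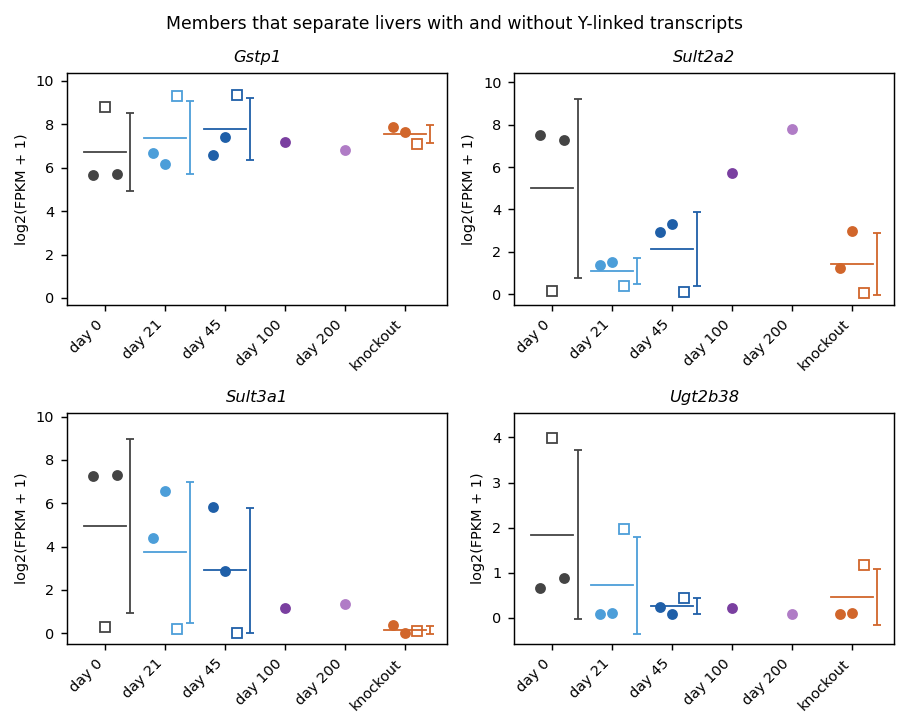
log2(FPKM + 1) of Gstp1, Sult2a2, Sult3a1 and Ugt2b38 by group, with open squares for the 4 livers that list Y-linked transcripts, filled circles for the others, lines at the means and bars for the SD. In the floxed groups of 3 the square is at the top for Gstp1 and Ugt2b38 and at the bottom for Sult2a2 and Sult3a1.

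The genes that supply, sense or export the conjugates were read from lists, with log2 fold changes in parentheses. The counts stand beside 23.7% of all genes called higher and 2.99% lower at day 45, and 19.3% and 14.5% in the knockout. Of 12 tested NRF2 targets other than the members, 8 were higher and 0 lower at day 45 (median log2 fold change 1.03, beside 0.20 for all genes) and 3 were higher and 0 lower in the knockout (median 0.34, beside 0.016). Among the most abundant, Ephx1, the microsomal epoxide hydrolase, rose at day 45 (1.53, adjusted p = 0.0017), and Txnrd1, thioredoxin reductase, did as well (0.75, adjusted p = 0.039), whereas Gclc and Gclm, the 2 subunits of the enzyme that limits glutathione synthesis, were not called (0.85, adjusted p = 0.24, and 0.57, adjusted p = 0.12). Nfe2l2, which encodes NRF2, rose at day 45 (1.16, adjusted p = 0.0089) and was not called in the knockout (−0.14, adjusted p = 0.71). It was the only 1 of 11 tested xenobiotic receptors and regulators called at day 45, and Nr1h4, the bile acid receptor FXR, was the only 1 called in the knockout, as lower (−0.99, adjusted p = 0.036), but not with replicate C as the only knockout liver (−0.043). Of 3 tested AHR targets the same 2 were higher at day 45 and in the knockout, Cyp1a2 (1.02, adjusted p = 0.0098, and in the knockout 1.27, adjusted p = 0.0036) and Nqo1, which the NRF2 list also holds. Of 12 CAR and PXR targets 3 were higher and 0 lower at day 45, and 2 were higher and 2 lower in the knockout, so that the share called higher at day 45 was close to that of all genes. Cyp3a11, the most abundant of them, rose at day 45 (1.17, adjusted p = 0.028).

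Of 7 genes for UDP-glucuronic acid supply 2 were higher at day 45, Ugdh, which makes the donor, with 76.6, 103 and 54.5 FPKM at day 0 and 174, 268 and 402 at day 45 (1.80, adjusted p = 0.0038), and Entpd5 (1.00, adjusted p = 0.017). In the knockout Ugp2, which makes its precursor UDP-glucose, was lower (−1.66, adjusted p = 0.0064), with 30.4, 32.2 and 109 FPKM, deepest in replicates A and B (−0.48 with C alone), and Gusb was higher (0.11 with C alone). Of 8 genes of PAPS supply and sulfate 1 was higher at day 45 (Papss1, a PAPS synthase) and 1 lower in the knockout (Slc26a1, a sulfate carrier), and Papss2, the more abundant synthase, was not called (−0.20, adjusted p = 0.76, and −0.95, adjusted p = 0.066). Of 11 genes of glutathione synthesis and recycling 1 was higher at day 45 and 2 in the knockout, and none was lower. Of 8 microsomal and other glutathione transferases 3 were higher at day 45 and 4 in the knockout, among them Clic1 in both (1.84, adjusted p = 0.00034, and 2.09, adjusted p = 7e-05), with 1.56 in the knockout with replicate C alone. Mgst1, the most abundant of them, was not called at day 45 (−0.051, adjusted p = 0.94). Of 13 conjugate transporters 3 were higher and 1 lower at day 45, and 1 was higher and 6 lower in the knockout, with the uptake carrier Slco1b2 called lower there (−1.82, adjusted p = 0.03, but 0.094 with replicate C alone) and the canalicular pump Abcc2 not (−0.71, adjusted p = 0.085). Of 18 other conjugating enzymes (acetyl, methyl, glycine and bile acid transferases and epoxide hydrolases) 1 was higher and 2 lower at day 45, and 0 were higher and 6 lower in the knockout. Ephx1 stands in this list and in that of NRF2. With replicate C as the only knockout liver the median log2 fold changes were 0.36 for NRF2, 0.50 for AHR and 0.61 for CAR and PXR targets. They were 0.23, −0.075 and 0.16 for UDP-glucuronic acid, PAPS and glutathione supply. For microsomal and other transferases, transporters and other conjugating enzymes they were 0.32, 0.059 and −0.28. The median of all genes in that fit was 0.055.

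Among the markers of hepatocyte zones, 3 of 12 pericentral genes were higher and 0 lower at day 45 and 0 of 9 periportal genes were higher and 2 lower. In the knockout 2 pericentral genes were higher and 2 lower, and 5 periportal genes were lower. There 6 of 7 cholangiocyte, 5 of 10 macrophage, 5 of 8 lymphocyte, 6 of 9 stellate and fibroblast and 1 of 4 proliferation markers were called higher and none lower, 1 of 8 endothelial markers was higher and 2 lower, and 1 of 9 hepatocyte markers was higher and 1 lower. With replicate C alone the median log2 fold changes were 1.12 for cholangiocyte, −0.13 for macrophage, 0.26 for lymphocyte and 0.88 for stellate and fibroblast markers. They were −0.74 for periportal and 0.16 for pericentral genes, beside 0.055 for all genes. The share of pericentral genes called higher at day 45 was close to that of all genes. The part of zonation and of these cells in the members' values was not tested.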

How the data were processed

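Poly(A) RNA of 14 mouse livers was sequenced from both fragment ends. The authors aligned the reads to mm9 with TopHat, set ribosomal, small nucleolar and mitochondrial sequences apart and deposited FPKM from Cufflinks 2.2.1, scaled to the upper quartile. For 11 floxed livers the deposited small RNA values are RPM (reads scaled to library depth) with 1 added, aligned with Bowtie 0.12.7. Columns of comparisons by the authors were not used.

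Rows with the same symbol were summed (224 symbols). Genes whose mean over all livers reached 1 FPKM were tested on log2(FPKM + 1) with limma 3.58.1 (R 4.3.3; lmFit, contrasts and eBayes with trend) in 1 fit of 5 groups, days 100 and 200 joined, with Benjamini-Hochberg adjustment within each comparison at 0.05. The pseudocount understates changes of low genes. Fragments per library were read from the steps between low FPKM values, and precision is limited by 3 livers or fewer per group. Scripts ran in Python 3.11.15 (pandas 2.3.3, numpy 2.4.6, scipy 1.17.1, matplotlib 3.10.9) and were tested on simulated data. GC shares and read-length windows came from GENCODE transcripts on NCBIM37, promoters from RefSeq on GRCm38.p6.

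Members and gene lists were chosen with earlier results of these data known. Values are given for the highest member of each family at day 0 and for up to 12 rises and 12 falls past the threshold at day 45 or in the knockout, ordered by size, and for up to 4 genes of the highest mean FPKM per list. Sult1c1, Sult1e1, Sult2a1, Sult2a3, Sult2a5, Sult2a7, Ugt2b34, Ugt2b38, Gstk1, Gstm4 and Gstm6, and outside the members Nfe2l2, Papss1, Gusb, Spp1 and the sex-linked genes, were named after their values were seen. Alternatives were a pseudocount of 0.1, no filter, a mean of at least 5 FPKM, median-centred libraries, equal totals, rows kept apart, a fit of the compared groups alone, a replicate block, no trend, single late days and each liver left out. Fits without the Y-linked livers, with these as a covariate, with GC and length corrected, and without knockout replicates A and B were added after seeing the data.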

Additional observations from a re-analysis of the deposited data

Results flagged for a closer look

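The effects of the 2 ways of losing miR-122 were compared by the difference between the knockout and day 45, tested with limma in the fit of all groups. It passed the adjusted threshold for 5 of 46 members, close to the 9.44% of all genes. Gstm7 was higher in the knockout than at day 45 by a log2 fold change of 0.72. Sult1b1 differed by −1.09, Ugt2a3 by −1.60, Ugt2b34 by −1.97 and Ugt3a1 by −1.17. In knockout replicates A and B all genes shifted with GC share. With replicate C as the only knockout liver the difference of Ugt3a1 was −0.87 and those of the other 4 lay between −0.33 and 0.27. Over all alternatives Ugt3a1 ranged from −1.55 to −0.64 and Ugt2a3 from −2.23 to −0.33. The part of the GC shift in these differences was not tested beyond the fit with replicate C alone and the GC correction. After that correction Gstm7 and Ugt2a3 were called.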

How the results depend on the processing

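Of 1248 alternative values for the 46 calls of the members named by rule against day 0, 1020 kept direction and side of the threshold, 227 kept the direction and missed it, and 1 changed sign: Gstp2 in the knockout without both replicates A and B (log2 fold change −0.061). Of the 46 calls 14 were kept in every alternative. Outside this number, the 5 calls of the knockout against day 45 were kept in 7 to 18 of 27 alternatives, and at days 100 and 200 Gstk1 was kept in 21 of 28, Sult2a5 in 23 of 27 and Sult2a3 in 27 of 27. Counts of called members that moved by over 1.5 times are given here, and the cause was not tested unless named.

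The share of all genes called in the same fit stands in parentheses. For day 21 the count of 2 (7.62%) became 9 with only the groups compared (15.6%), 7 without Y-linked livers (5.65%), 6 with these as a covariate (8.93%), 6 without both knockout replicates A and B (16.8%), and 0 to 5 when single livers were left out (2.14 to 18.1%). For day 45 the count of 16 (26.7%) lay between 7 and 22 with single livers left out (15.7 to 39%). For days 100 and 200 the count of 15 (31.6%) became 8 with a mean of at least 5 FPKM (22.7% of fewer genes tested), 7 with day 200 alone (14.4%), 27 without Y-linked livers (39.6%), and 7 to 18 with single livers left out (14.3 to 44.9%). For the knockout the count of 16 (33.8%) became 8 with only the groups compared (9.77%), 31 without Y-linked livers (57.4%), 5 without both knockout replicates A and B (5.91%), and 7 to 21 with single livers left out (14.4 to 62.4%). Day 45 against day 21 went from 0 (0.273%) to at most 3 (9.24%). The knockout against day 45 went from 5 (9.44%) to 2 with no filter (7.14%), 3 with a mean of at least 5 FPKM (5.34%), 1 with median-centred libraries (3.57%), 0 with only the groups compared (0.555%), 19 without Y-linked livers (49.5%) and 12 with these as a covariate (16.5%). It went to 2 with GC and length corrected (5.1%), 0 without both knockout replicates A and B (2.61%), and 0 to 15 with single livers left out (2.03 to 52.2%).

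Letters shared between groups did not pair the mice: over 18 same-letter pairs the correlation of deviations ran from −0.45 to 0.50, and 8 exceeded 0.1. With the replicate block 1 member was called at day 21 (4.14% of all genes), 14 at day 45 (23.5%), 13 in the knockout (26.6%), 0 between days 45 and 21 (0.00881%) and 0 between the knockout and day 45 (3.94%), and no such fit was possible for days 100 and 200, which carry no letters.

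The log2 ratio of the miR-122 share was −2.58 at day 21 and −6.46 at day 45 (−2.70 to −2.36 and −6.81 to −5.97 with single livers left out), and −4.00 and −8.04 per read of other microRNAs, since miR-122 itself makes up most of the total. With 2 or 3 livers per group, 1 mouse per late day, no vector control and no stated sex, a missed threshold does not show that a member stayed as it was.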
